A study of Mus musculus with 62 samples.

Results

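The genes described here are 10 endothelial genes, Pecam1, Cdh5, Kdr, Flt1, Tek, Tie1, Vwf, Emcn, Eng and Egfl7, read in whole skeletal muscle as a sign of its capillaries. They were taken by symbol as known endothelial genes, with earlier results of these data known. All 10 were present in each of the 4 expression tables, among 29239 gene symbols in the chow table, 21936 in the table of hypoxia and diet, 20956 in the table of viral overexpression and 17896 in the table of C2C12 cells.

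The study asked what the transcription factor ChREBP, encoded by Mlxipl, does in skeletal muscle, and RNA-seq was run on 62 libraries. On chow, gastrocnemius (GC) and soleus (SOL) were taken from 5 F/F mice, which carry the floxed gene (ChREBP-flox) without Cre, and from 5 ChMKO mice, which carry it with Mck-cre. In the second experiment, GC was taken from F/F and ChMKO mice in normoxia on chow (Norm), after 14 days in a chamber at a simulated altitude of about 5500 m (Hypo), or after 3 months of a high-fructose diet (HFrD), with 4 mice in each of the 6 groups. The remaining experiments compared GC of C57BL/6J mice at 14 days after intramuscular AAV-MLXIPL or the control vector AAV-CON (5 mice each), and C2C12 mouse myoblasts with ChREBP overexpression or vector control at day 7 of differentiation (4 libraries each).

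F/F controls were littermates of ChMKO mice, so both genotypes carry the floxed alleles. Mice were males of 8 to 10 weeks unless stated otherwise, and whether the HFrD and Norm groups were of equal age at collection is not given in the sources used here. The muscle creatine kinase promoter that drives Mck-cre is active in skeletal muscle fibres and heart and was not aimed at endothelial cells. Hypo mice were moved back to standard housing before tissue was collected. Tissue was rinsed in buffered saline to clear blood. The AAV carried a promoter that is not specific to a cell type, and the C2C12 replicates, which the study calls independent and elsewhere defines as separate culture wells, came from a single line per group, so the p-values for C2C12 measure the spread between cultures of a line. Depth was estimated at 16300000 to 19800000 reads on chow and 15500000 to 20200000 with AAV, was 14473170 to 23460515 reads in the second experiment, and is unknown for C2C12. The estimates are rough, since at these depths only 40.5 to 45.1% of low values on chow came near whole reads. With AAV the share was 27.5 to 30.6%. The deletion removes only part of Mlxipl, and reads from the rest of the gene still count. Mlxipl was 12.5 to 18.5 FPKM in GC of ChMKO mice against 20.4 to 30.3 FPKM in F/F mice on chow, and 2.38 to 4.49 FPKM against 7.76 to 10.8 FPKM over the 3 conditions of the second experiment. In SOL the genotypes overlapped, at 30.0 to 46.1 FPKM in ChMKO and 43.8 to 64.1 FPKM in F/F mice. AAV-MLXIPL raised Mlxipl from at most 12.3 FPKM to 52.9 to 101.1 FPKM, and overexpression in C2C12 raised it from at most 0.02 FPKM to 12.8 to 13.8 FPKM.

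Capillaries run along the muscle fibres and deliver oxygen, glucose and fatty acids to them. Oxidative muscle with many slow fibres, such as the soleus, is known for a denser capillary bed than glycolytic muscle such as the gastrocnemius. Muscle fibres release VEGF-A, which acts on VEGF receptors of the endothelium, and low oxygen raises its transcription through hypoxia-inducible factors. RNA from whole muscle mixes all its cells, so that fewer endothelial cells and less RNA per endothelial cell cannot be told apart in any comparison of muscle.

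The members fall into 4 roles, and their positions are those of the chow table on GRCm38. At the junctions between endothelial cells, Pecam1 (chr11:106654213-106750623) encodes the adhesion molecule CD31 and Cdh5 (chr8:104101613-104144504) encodes VE-cadherin. Kdr (chr5:75933265-75979074) encodes the main signalling receptor for VEGF-A, and Flt1 (chr5:147562196-147726005) encodes a receptor that binds VEGF-A tightly and, in its soluble form, acts as a decoy. Tek (chr4:94739289-94874976) encodes the angiopoietin receptor and Tie1 (chr4:118471191-118489849) its related partner, while Eng (chr2:32646595-32682669) encodes endoglin, a co-receptor for BMP and TGF-beta ligands. Vwf (chr6:125552935-125686679) encodes von Willebrand factor, which is stored in endothelial granules and is stronger in veins and larger vessels than in capillaries. Emcn (chr3:137341061-137431069) encodes the surface sialomucin endomucin of capillary and venous endothelium, and Egfl7 (chr2:26581056-26592682) encodes a secreted matrix protein of the vessel wall.

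The promoters of these genes are shown as background, and their part in the differences between muscles was not tested. RefSeq promoter sequences on GRCm38.p6, from 250 bases before to 50 bases after a start, were matched for 7 members with 9 starts, 3 of them of Egfl7. No entry was found for Pecam1, Cdh5 and Vwf. Factors of the ETS family, which take part in the transcription of endothelial genes, bind sequences with a GGAA core. The motif CAGGAA, searched on both strands, was in 6 of the 9 promoters (66.7%), against 30.6% of all 32851 promoters, and CCGGAA was in 1 of the 9, against 14.9%. Promoters were counted by start, so Egfl7 enters the first count more than once. Capitals mark CAGGAA or CCGGAA on the strand shown or, as TTCCTG or TTCCGG, on the opposite strand. The 4 sequences printed are those of the angiopoietin receptor pair, of Emcn, which like Tek has 2 matches, and of Kdr, which has the only match of CCGGAA.
Tek, chr4:94739039-94739338, plus strand: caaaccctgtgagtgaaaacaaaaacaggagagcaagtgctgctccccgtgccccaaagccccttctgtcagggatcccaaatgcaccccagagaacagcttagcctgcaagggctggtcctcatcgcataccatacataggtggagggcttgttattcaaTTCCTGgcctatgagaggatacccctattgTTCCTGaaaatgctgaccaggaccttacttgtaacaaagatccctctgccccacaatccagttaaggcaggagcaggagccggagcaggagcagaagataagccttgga
Tie1, chr4:118489800-118490099, minus strand: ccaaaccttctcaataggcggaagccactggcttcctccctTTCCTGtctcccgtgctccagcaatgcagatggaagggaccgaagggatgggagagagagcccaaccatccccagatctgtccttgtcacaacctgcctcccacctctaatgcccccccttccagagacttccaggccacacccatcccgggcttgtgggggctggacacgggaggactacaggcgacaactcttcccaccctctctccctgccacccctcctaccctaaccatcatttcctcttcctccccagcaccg
Emcn, chr3:137340828-137341127, plus strand: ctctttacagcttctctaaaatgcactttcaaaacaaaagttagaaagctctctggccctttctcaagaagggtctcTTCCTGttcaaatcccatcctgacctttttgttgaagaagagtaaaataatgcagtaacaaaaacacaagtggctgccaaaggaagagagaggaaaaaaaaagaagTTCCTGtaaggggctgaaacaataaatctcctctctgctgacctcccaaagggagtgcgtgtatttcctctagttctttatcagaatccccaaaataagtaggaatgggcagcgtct
Kdr, chr5:75978406-75978705, minus strand: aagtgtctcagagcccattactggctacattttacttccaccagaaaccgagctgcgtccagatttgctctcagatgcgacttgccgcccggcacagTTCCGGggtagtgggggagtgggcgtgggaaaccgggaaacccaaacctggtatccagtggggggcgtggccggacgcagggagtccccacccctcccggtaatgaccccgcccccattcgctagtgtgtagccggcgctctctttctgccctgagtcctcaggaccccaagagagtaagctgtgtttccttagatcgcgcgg

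The core of the hypoxia response element, ACGTG or GCGTG on either strand, was in 4 of the 9 promoters (44.4%), those of Emcn, Kdr and Flt1 and 1 of Egfl7, against 43.8% of all promoters. The E-box CACGTG, the kind of sequence at the centre of ChREBP binding sites, was in 0 of the 9 and in 7.15% of all promoters. A match is a stretch of letters in this window and was not tested for binding. Egfl7 also hosts a microRNA of endothelial cells, miR-126a, which these libraries of longer RNA do not measure. Its 3p arm lies at chr2:26591402-26591423 on the plus strand within Egfl7 and is given with the seed, bases 2 to 8, in capitals.
mmu-miR-126a-3p: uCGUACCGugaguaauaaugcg

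Levels are in FPKM, fragments per kilobase of gene and scaled to the fragments of its library, which allows genes to be ranked within a table. Levels were not compared between tables, which were normalised separately with different annotations. In GC of F/F mice on chow, Cdh5 had the highest mean level (18.8 ± 4.96 FPKM, SD, n = 5), followed by Pecam1 (17.2 ± 4.27), Egfl7 (15.7 ± 2.42), Eng (12.3 ± 2.95) and Tie1 (9.23 ± 1.39). Kdr (7.48 ± 3.37), Flt1 (6.57 ± 2.26), Emcn (6.52 ± 1.61), Tek (4.34 ± 1.40) and Vwf (3.63 ± 0.813) came after them. Every pair of neighbours in this order overlapped over the 5 libraries. In SOL of F/F mice, Pecam1 (43.8 ± 10.8 FPKM) was followed by Cdh5 (41.4 ± 9.78), Egfl7 (38.7 ± 14.6), Eng (32.9 ± 10.6), Tie1 (22.9 ± 8.45), Kdr (19.7 ± 1.80), Emcn (17.3 ± 6.45), Flt1 (14.6 ± 4.25), Tek (8.34 ± 1.00) and Vwf (7.03 ± 2.05). The only neighbours whose values did not overlap in SOL were Flt1 and Tek. The members were nearly absent from C2C12 cells, which hold no endothelium: their summed level was 1.47 to 2.88 FPKM per library, and Tie1 was listed at 0 in all 8 libraries.

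The first comparison asked how the capillary signal of SOL differs from that of GC. All 10 members were higher in SOL than in GC of F/F mice, by log2 fold changes of 0.78 for Vwf to 1.38 for Kdr, with a median of 1.18 (n = 5 per muscle). By the ratio of means, to which nothing is added, the lowest were Tek (1.92) and Vwf (1.94) and the highest Kdr (2.63), Emcn (2.65) and Eng (2.67). The fold changes, which understate the change of low genes, were taken on log2(FPKM + 1), fitted with limma over all genes whose mean level reached 0.5 FPKM, and a gene was called at a Benjamini-Hochberg adjusted p under 0.05. SOL and GC differed widely, and 37.9% of the 13235 genes tested were called higher in SOL. The median over all genes was 0.18. With a limit of 1 on the log2 fold change and an unadjusted p under 0.05, 8 members were called higher, all but Tek and Vwf, against 5.41% of all genes. After rescaling of the libraries to a common median of ratios 4 members passed this limit, Pecam1, Kdr, Emcn and Eng.

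Pecam1 was 33.9, 38.7, 44.4, 40.1 and 61.9 FPKM in SOL of F/F mice 57, 58, 69, 70 and 71, and 15.97, 22.3, 11.5, 20.5 and 15.9 FPKM in GC of the same mice. Every SOL library was above every GC library, and the means of 43.8 ± 10.8 and 17.2 ± 4.27 FPKM gave a ratio of 2.54 (log2 1.30, SE 0.19, adjusted p = 0.000234). Cdh5 differed less, at 35.4 to 58.5 FPKM in SOL and 11.8 to 24.3 FPKM in GC (log2 1.11, SE 0.19, adjusted p = 0.000758). The 2 junction genes thus moved in the same direction without overlap between the muscles.

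Kdr was 18.3, 20.0, 18.5, 18.8 and 22.7 FPKM in SOL of F/F mice 57, 58, 69, 70 and 71, and 7.84, 12.1, 3.30, 8.77 and 5.37 FPKM in GC. Its SOL libraries lay close together while its GC libraries spread widely, and the groups did not overlap (ratio of means 2.63, log2 1.38, SE 0.24, adjusted p = 0.000829). Flt1 was 11.6 to 22.1 FPKM in SOL and 3.23 to 9.20 FPKM in GC (log2 1.06, SE 0.23, adjusted p = 0.00302). Of the angiopoietin receptor pair, Tie1 was 17.3 to 37.3 FPKM in SOL and 7.63 to 11.1 FPKM in GC (log2 1.17, SE 0.19, adjusted p = 0.000532). Tek was 7.43, 7.87, 9.28, 7.54 and 9.55 FPKM in SOL and 4.16, 6.55, 2.73, 4.49 and 3.75 FPKM in GC, again without overlap (ratio of means 1.92, log2 0.84, SE 0.16, adjusted p = 0.00137). The co-receptor Eng was 21.9 to 49.9 FPKM in SOL and 8.60 to 16.6 FPKM in GC (log2 1.32, SE 0.21, adjusted p = 0.000417).

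Vwf was 5.08, 5.26, 8.42, 6.60 and 9.81 FPKM in SOL of F/F mice 57, 58, 69, 70 and 71, and 3.52, 4.45, 2.39, 4.27 and 3.53 FPKM in GC. The difference was 0.78 on the log2(FPKM + 1) scale (SE 0.18, adjusted p = 0.00425), and its lowest SOL library was only a little above its highest GC library. Emcn was 11.3 to 28.0 FPKM in SOL and 4.91 to 8.96 FPKM in GC (log2 1.24, SE 0.22, adjusted p = 0.000775), and Egfl7 24.8 to 63.4 and 12.8 to 19.4 FPKM (log2 1.19, SE 0.21, adjusted p = 0.000709). In all, 10 of 10 members had no overlap between the muscles, against 26.3% of all genes in that direction. GC and SOL came from the same mice, and for every member SOL was above GC in 5 of 5 F/F mice, with ratios from 1.18 for Vwf in mouse 58 to 5.62 for Kdr in mouse 69. Mouse 58, whose GC library had the highest members, gave the lowest ratio for all 10 genes.

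**Figure D1:**
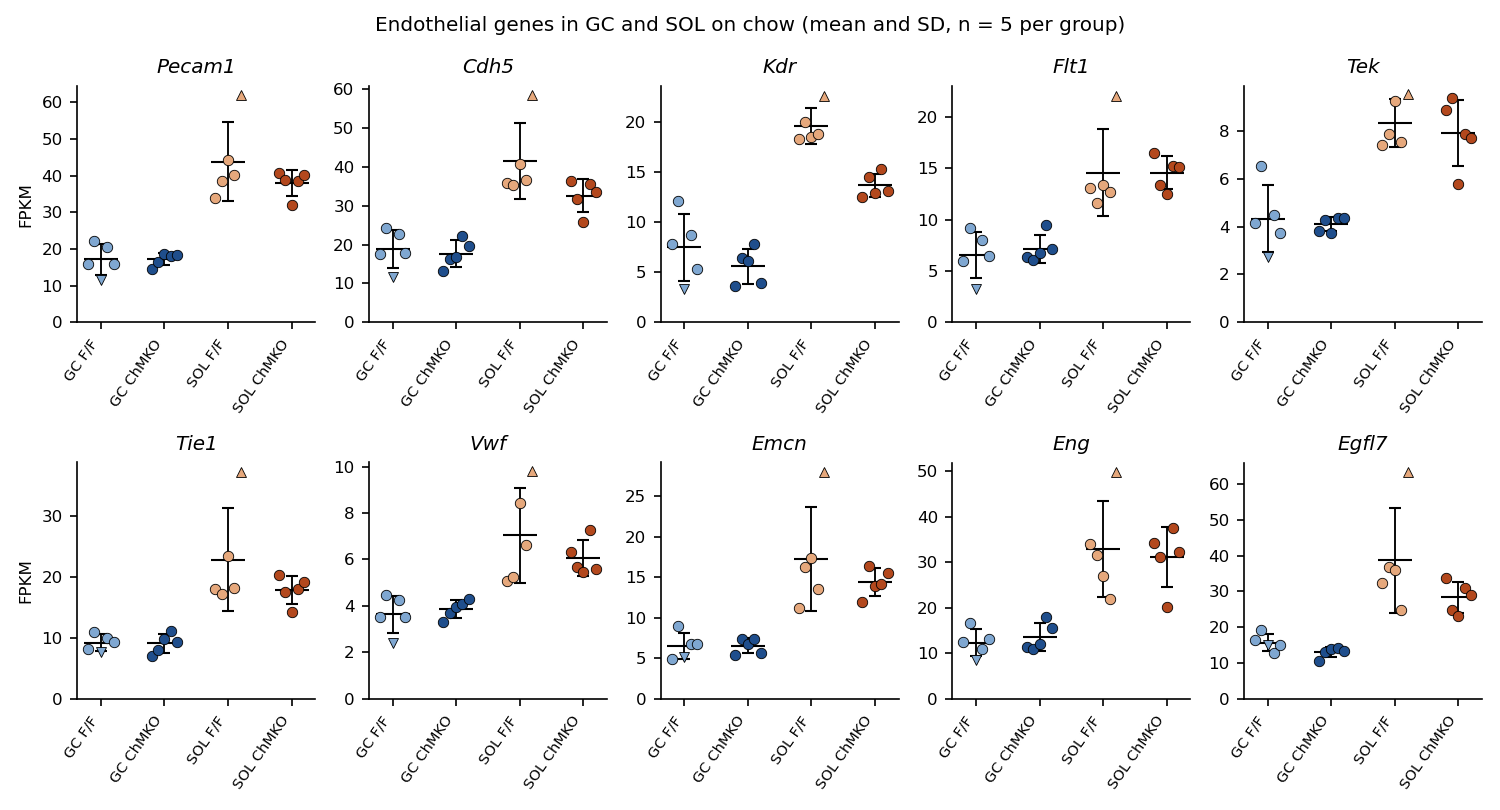
FPKM of each of the 10 genes in the 20 chow libraries by muscle and genotype, with 1 point per library, bars for mean and SD (n = 5), an upward triangle for SOL F/F mouse 71 and a downward triangle for GC F/F mouse 69. The SOL libraries lie above the GC libraries of the same genotype for every gene, for Pecam1 in F/F mice at 33.9 to 61.9 against 11.5 to 22.3 FPKM.

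SOL of F/F mouse 71 and GC of F/F mouse 69 stood apart from the other 18 chow libraries on the second principal component (6.82% of variance), at 40.0 and 25.1, where the others lay between -9.30 and 5.24. The first was the highest library for all 10 members in SOL, and the second was the lowest of its group for 8 of 10. Without both libraries all 10 members were still called higher in SOL, with a median log2 fold change of 0.96 and values of 0.55 for Vwf to 1.11 for Kdr (limma, largest adjusted p = 0.00992). When libraries were rescaled to a common median of ratios, 10 of 10 members remained called in F/F mice with a median of 0.97. Over all genes that rescaling moved the calls from 5013 higher of 6673 to 2907 higher of 5845.

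ChMKO mice showed the same difference between muscles. All 10 members were higher in SOL than in GC, by 0.53 for Vwf to 1.19 for Kdr, with a median of 0.99 against 0.15 over all genes and 41.0% of the 13080 genes tested called higher. With the fold limit, 5 members were called higher, namely Pecam1, Kdr, Emcn, Eng and Egfl7, against 4.85% of all genes, and after rescaling only Kdr passed it. Kdr was 12.5, 14.6, 12.9, 15.3 and 13.1 FPKM in SOL of ChMKO mice 59, 60, 61, 72 and 74 and 3.67, 6.47, 6.13, 7.79 and 3.96 FPKM in GC (SE 0.16, adjusted p = 7.31e-05). Vwf was 6.34, 5.66, 5.46, 7.28 and 5.596 FPKM in SOL and 3.32, 3.71, 3.96, 4.08 and 4.30 FPKM in GC (SE 0.08, adjusted p = 0.000223). After the rescaling the members' median was 0.82 with 10 of 10 called, and the calls over all genes moved from 5359 higher of 7575 to 3482 higher of 7034. For both genes the lowest SOL library was above the highest GC library, as it was for all 10 members, against 30.2% of all genes in that direction. SOL was above GC in 5 of 5 ChMKO mice for each member, with ratios from 1.30 for Vwf in mouse 74 to 3.41 for Kdr in mouse 59.

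Many genes of the other vascular lists were also called higher in SOL, to be read against the 37.9% of all genes called higher in F/F mice. In these mice 24 of 24 other endothelial genes tested were called higher, with a median of 0.94, from 0.41 for Arhgap31, a regulator of small GTPases, to 1.39 for Podxl, a sialomucin of the vessel lumen. All 10 capillary genes of lipid handling were called higher, with a median of 1.07, from 0.75 for the transcription factor Meox2 to 2.65 for Lpl, the lipoprotein lipase made by muscle fibres and adipocytes and carried to the capillary wall. Of the lists that mark other vessels, 6 of 7 arterial genes (median 0.69), 5 of 6 venous genes (0.55) and 2 of 4 lymphatic genes (0.50) were called higher. Of these lists only the lymphatic genes were as low as the members in C2C12 cells, at 0.19 to 0.61 FPKM in sum. The other endothelial genes summed there to 186.1 to 221.6 FPKM, with Cav1 and Aqp1 the highest, the arterial genes to 62.1 to 76.9 FPKM and the venous genes to 94.6 to 104.4 FPKM, with Vcam1 the highest. Among ligands of the member receptors 7 of 9 were called higher, with Angpt1, the angiopoietin that activates the Tek receptor, at 1.14 (adjusted p = 0.000581) and Pgf, a ligand of the Flt1 receptor, at -0.06 (adjusted p = 0.776). Among co-receptors and Notch genes 7 of 9 were called higher, from -0.19 for Bmpr2, a BMP receptor (adjusted p = 0.138), to 0.90 for Acvrl1, the receptor that acts with endoglin.

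Lists of cells around or inside the vessels moved with the muscle as well. Of 10 pericyte genes 9 were called higher in SOL of F/F mice and Abcc9, a potassium channel subunit, was called lower (-0.72), and of 7 smooth muscle genes 5 were called higher. The 5 red blood cell genes were all called higher, with a median of 1.37 and a summed level of 165.5 to 354.5 FPKM in SOL against 61.9 to 123.0 FPKM in GC. Fibroblast genes (1 of 10 called higher, median 0.18), macrophage and leukocyte genes (0 of 7 called by limma, 1 at an unadjusted p under 0.05, median 0.06) and Schwann cell genes (0 of 7 called by limma, 0 at an unadjusted p under 0.05, median 0.09) lay closer to the median of all genes in F/F mice. In ChMKO mice 4 of 5 Schwann cell genes were called higher in SOL, with a median of 0.80. Adipocyte genes had a median of 1.36 with 2 of 6 called higher, at 33.4 to 194.6 FPKM in SOL and 7.45 to 87.5 FPKM in GC. The part of red blood cells, adipocytes and mural cells in the members' difference was not tested. Slow fibre genes, which mark the muscle itself, were 6268.5 to 10219.2 FPKM in SOL and 3.73 to 152.7 FPKM in GC.

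Between ChMKO and F/F mice no member passed the threshold on chow, and neither did Mlxipl itself, with log2 differences of -0.63 in GC (adjusted p = 0.413) and -0.47 in SOL (adjusted p = 0.384). In GC, 0 of 10 members were called by limma between ChMKO and F/F mice, where 0.0236% of 12724 genes were called, and 1 member, Egfl7, had an unadjusted p under 0.05 (log2 -0.25, 95% interval -0.48 to -0.01, adjusted p = 1.00). Of the 12724 genes, 589 had an unadjusted p under 0.05. The members' median was -0.00 against 0.01 over all genes, and ran from -0.09 to 0.12 with a library left out. Pecam1 was 14.7 to 18.7 FPKM in ChMKO and 11.5 to 22.3 FPKM in F/F mice, with a log2 difference of 0.03 and a 95% interval of -0.30 to 0.36. The 95% intervals of the 10 members reached down to -0.92 for Kdr and up to 0.61 for Flt1.

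In SOL, 0 of 10 members were called by limma between genotypes, where 0.0225% of 13348 genes were called, and 2 members, Kdr and Cdh5, had an unadjusted p under 0.05. Of the 13348 genes, 1300 had an unadjusted p under 0.05. The median was -0.18 against -0.02 over all genes, and with a library left out it ran from -0.29 without F/F mouse 57 to -0.04 without F/F mouse 71. Kdr was 12.5, 14.6, 12.9, 15.3 and 13.1 FPKM in ChMKO and 18.3, 20.0, 18.5, 18.8 and 22.7 FPKM in F/F mice. Its groups did not overlap, a pattern in that direction found in 1.16% of all genes, but the difference of -0.49 (SE 0.08) had an adjusted p of 0.118. Without SOL of F/F mouse 71 the difference in Kdr was -0.44 with an adjusted p of 0.0732. Cdh5 (-0.32, adjusted p = 0.505), Egfl7 (-0.38, adjusted p = 0.548) and Flt1 (0.03, adjusted p = 0.960) overlapped between genotypes. The difference between muscles was compared between genotypes directly, and 0 of 10 members were called by limma (0 at an unadjusted p under 0.05), where 0.00759% of 13176 genes were called. The median of these differences was -0.20, and 0.07 without SOL of mouse 71 and GC of mouse 69.

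**Figure D2:**
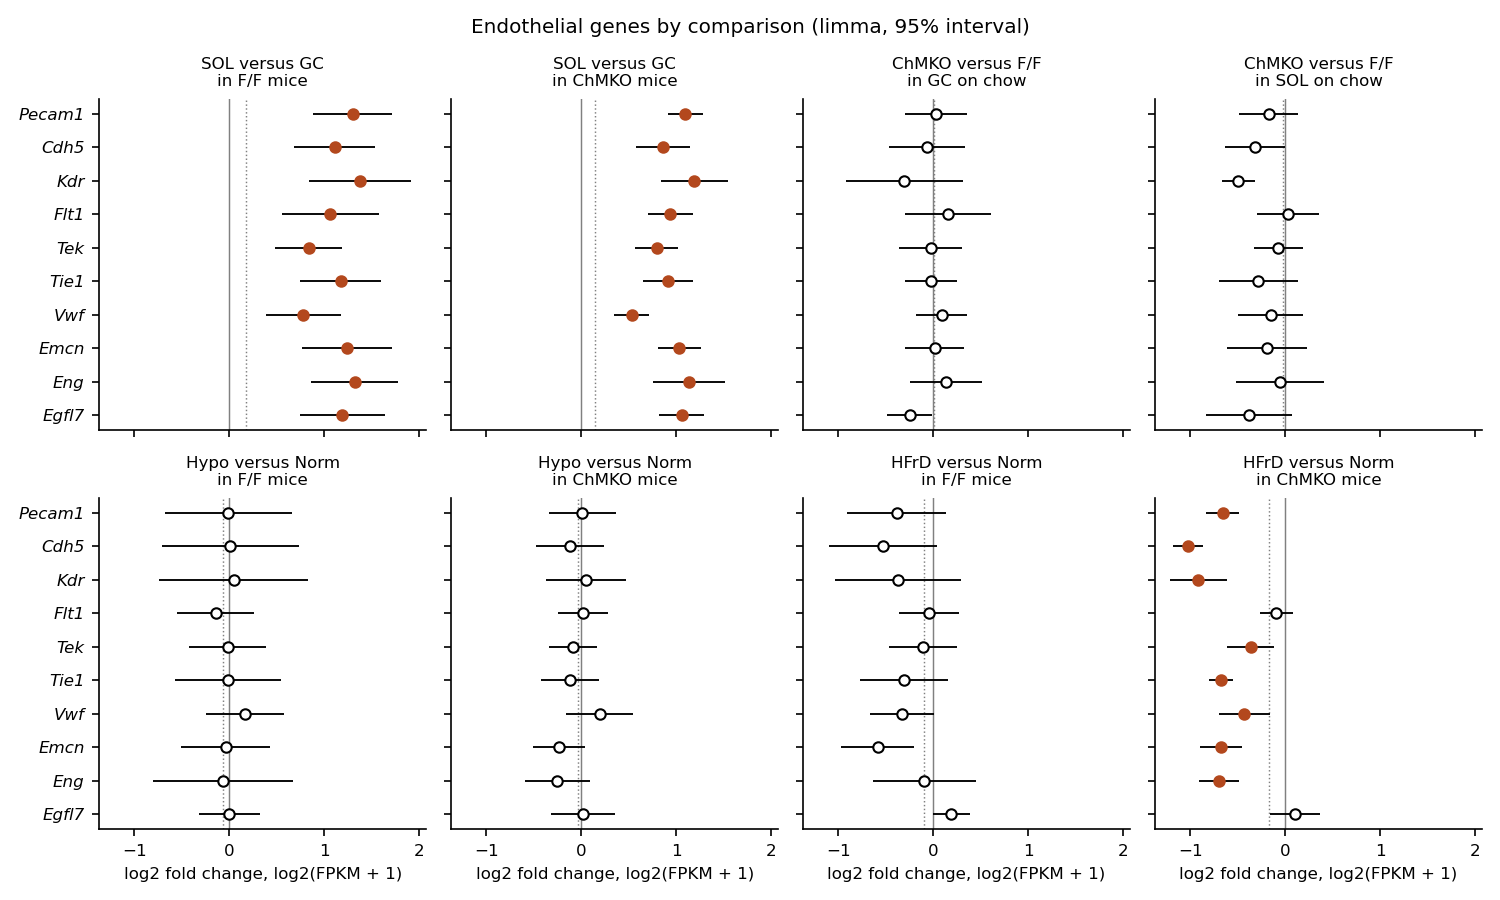
Log2 fold change on log2(FPKM + 1) with its 95% interval for each gene in 8 comparisons, with filled points for an adjusted p under 0.05 and a dotted line at the median of all genes. All points are filled for SOL against GC in both genotypes, 8 are filled for HFrD against Norm in ChMKO mice, and none is filled in the others.

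The second experiment asked how GC responds to hypoxia and diet. Before the results, a division among its 24 libraries has to be described. The first principal component of 10623 genes outside the vascular lists held 61.5% of the variance and split the libraries into 12 at -27.4 to -18.6 and 12 at 16.3 to 39.2, with none between. The negative side held all 8 HFrD libraries, 2 of the 4 F/F libraries of Norm and 2 of the 4 F/F libraries of Hypo. The positive side held the other 2 libraries of each of these F/F groups and all 8 ChMKO libraries of Norm and Hypo. The labels give no batch or date for this division.

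The members took no part in defining the sides, which most other genes tested did. Their summed level was 93.2 to 155.4 FPKM on the positive side and 72.3 to 84.1 FPKM on the negative side. The ratio of the side medians was 2.03 for Cdh5, 1.95 for Kdr, 1.77 for Pecam1 and 1.65 for Tie1, whose values did not overlap between sides, against 11.8% of 10718 genes with a mean of 0.5 FPKM or more that were higher without overlap on the positive side. It was 1.72 for Emcn, 1.69 for Eng, 1.58 for Vwf, 1.35 for Tek, 1.11 for Flt1 and 0.906 for Egfl7, whose values overlapped. The 10 most abundant genes took 35.4 to 43.6% of FPKM on the positive side and 45.4 to 48.6% on the negative side.

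Other lists also differed along the same division, some with overlap, and not all in the members' direction. The summed level of other endothelial genes was 356.9 to 558.9 FPKM on the positive and 264.7 to 337.2 FPKM on the negative side, and that of hypoxia-inducible factor targets 1705 to 2471 against 1280 to 1766 FPKM. Fibroblast genes ran from 248.7 to 677.7 against 172.0 to 279.9 FPKM, macrophage and leukocyte genes from 60.5 to 199.6 against 40.6 to 79.2 FPKM, and red blood cell genes from 205.0 to 840.1 against 62.3 to 330.9 FPKM. The summed level of pericyte genes was 180.3 to 217.9 on the positive and 179.4 to 216.9 FPKM on the negative side. That of capillary genes of lipid handling overlapped, at 234.9 to 384.9 and 300.4 to 465.6 FPKM. Its medians, 303.8 on the positive and 355.9 FPKM on the negative side, ran opposite to the members. Such sums rest on the most abundant genes of a list, and the single genes of both lists are counted with the diet in ChMKO mice, where the groups fall on different sides. The part of these cells, of the makeup of the libraries or of the tissue piece in the members' levels was not tested. For the members, the effects of hypoxia and diet and the genotype differences that mix the sides are also given within a side where a side holds both groups, and the other lists were not fitted within a side.

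**Figure D3:**
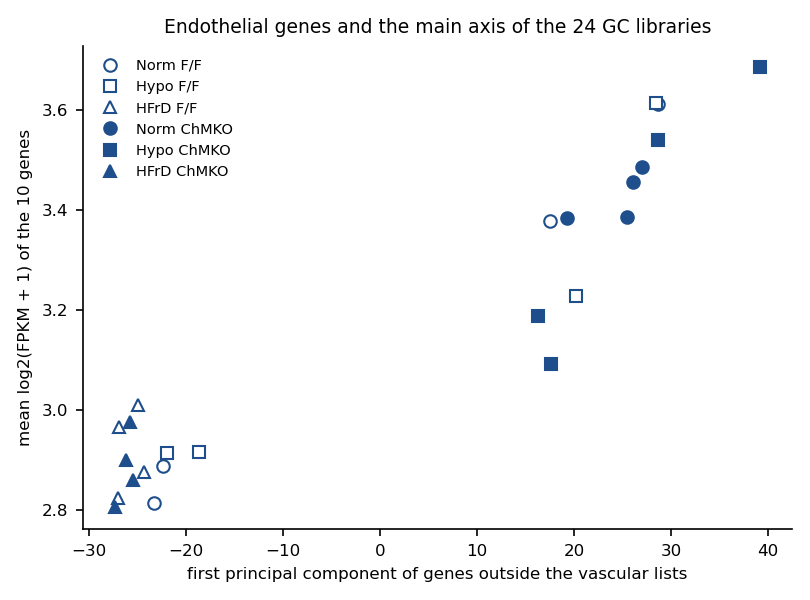
Mean log2(FPKM + 1) of the 10 genes in each of 24 GC libraries (vertical) against the first principal component of genes outside the vascular lists (horizontal), with circles for Norm, squares for Hypo, triangles for HFrD, open for F/F and filled for ChMKO. The 12 libraries on the left lie at 2.81 to 3.01 and the 12 on the right at 3.09 to 3.69.

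After 14 days of hypoxia no member differed past the threshold in GC. In F/F mice 0 of 10 members were called by limma (0 at an unadjusted p under 0.05), where 0% of 10740 genes were called and 411 had an unadjusted p under 0.05. The median was -0.01 against -0.06 over all genes, and the members ran from -0.14 for Flt1 to 0.17 for Vwf. Pecam1 was 26.8, 19.9, 13.2 and 14.6 FPKM in the 4 Hypo mice and 22.8, 27.2, 13.1 and 12.9 FPKM in the 4 Norm mice. Of these the first 2 of each group were on the positive and the last 2 on the negative side. Each group held 2 high and 2 low libraries, and the 95% interval of the difference ran from -0.67 to 0.66. Kdr was 12.3, 9.30, 6.35 and 5.15 FPKM in Hypo and 10.3, 12.0, 3.81 and 6.76 FPKM in Norm, with an interval of -0.74 to 0.83, the widest among the members.

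Within the positive side, with 2 libraries per group, the median in F/F mice was -0.10 and 0 of 10 members were called by limma (0 at an unadjusted p under 0.05), where 0% of 10636 genes were called. Within the negative side it was 0.11 and 0 of 10 were called (2 at an unadjusted p under 0.05), where 0.748% of 10698 genes were called. Vwf was 4.36, 2.93, 2.50 and 3.29 FPKM in Hypo and 3.45, 3.46, 2.41 and 1.95 FPKM in Norm, with a difference of 0.17 (SE 0.18, adjusted p = 1.00). Flt1 was 10.7, 9.25, 7.20 and 7.55 FPKM in Hypo and 9.98, 12.6, 9.14 and 7.25 FPKM in Norm. Both genes overlapped between the groups.

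In ChMKO mice, whose Norm and Hypo libraries all lay on the positive side, 0 of 10 members were called by limma (0 at an unadjusted p under 0.05), where 0.890% of 10676 genes were called. The median was -0.04 against -0.03 over all genes, from -0.25 for Eng to 0.20 for Vwf. Eng was 10.3, 11.5, 17.2 and 15.0 FPKM in the 4 Hypo mice and 18.7, 14.7, 14.2 and 16.5 FPKM in the 4 Norm mice, with an interval of -0.59 to 0.09. Emcn was 2.94, 3.11, 3.63 and 4.08 FPKM in Hypo and 4.93, 4.51, 3.29 and 4.19 FPKM in Norm (log2 -0.23, adjusted p = 0.409). For both genes 2 Hypo libraries lay below the lowest Norm library and the others overlapped with Norm. Pecam1 had a difference of 0.01 with an interval of -0.34 to 0.36, which holds smaller changes of either sign. The response to hypoxia was compared between genotypes directly, and 0 of 10 members were called by limma (0 at an unadjusted p under 0.05), where 0% of 10718 genes were called and 234 had an unadjusted p under 0.05. The median of these differences was -0.03, and 0.09 with the Norm and Hypo libraries of the positive side only, where 0 of 10 members (0 at an unadjusted p under 0.05) and 0% of 10716 genes were called.

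No gene of the lists around the receptors passed the threshold in hypoxia. The counts at an unadjusted p are to be read against 411 of 10740 genes in F/F and 1613 of 10676 in ChMKO mice. Of 9 ligands 0 were called by limma in F/F (0 at an unadjusted p under 0.05) or ChMKO mice (3 at an unadjusted p under 0.05), with Vegfd, a ligand of the VEGF receptors, the highest at 0.26 in F/F (adjusted p = 1.00) and 0.63 in ChMKO mice (adjusted p = 0.119). Of 25 other endothelial genes 0 were called by limma in either genotype (0 in F/F and 1 in ChMKO mice at an unadjusted p under 0.05), with medians of 0.01 and 0.06. Of 10 capillary genes of lipid handling 0 were called (0 and 5 at an unadjusted p under 0.05), with medians of 0.11 and 0.26. Of 17 hypoxia-inducible factor targets 0 were called (0 and 5 at an unadjusted p under 0.05), with medians of 0.05 and 0.10. Slow fibre genes, of which 0 of 4 were called but all 4 had an unadjusted p under 0.05 in either genotype, had medians of 2.28 and 2.65, and their summed level spread from 70.1 to 565.0 FPKM over the Hypo and from 6.31 to 125.3 FPKM over the Norm libraries. The members' medians near 0 thus stood beside slow fibre medians of 2.28 and 2.65, with a wide spread of slow fibre levels between libraries.

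On the high-fructose diet the members were lower in ChMKO mice. Of 10 members 8 were called lower than in Norm, namely Pecam1, Cdh5, Kdr, Tek, Tie1, Vwf, Emcn and Eng, with a median of -0.66 over the 10. Lower levels were common, since 44.6% of 10733 genes were called lower and the median of all genes was -0.17. With the fold limit only Cdh5 was called lower, against 1.64% of all genes, and after rescaling 0 members passed it. In 7 members the groups did not overlap, against 39.2% of all genes in that direction.

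Cdh5 was 18.3, 20.8, 17.4 and 17.2 FPKM in the 4 ChMKO mice on HFrD and 37.5, 38.2, 36.3 and 41.5 FPKM in Norm. The groups were tight and far apart, with a ratio of means of 0.480 (log2 -1.02, SE 0.07, adjusted p = 3.21e-06). Kdr was 4.47, 6.13, 4.95 and 3.71 FPKM on HFrD and 9.12, 9.48, 8.90 and 12.1 FPKM in Norm (log2 -0.91, SE 0.13, adjusted p = 0.000301). Pecam1 was 13.3, 15.5, 13.2 and 15.9 FPKM on HFrD and 23.9, 21.0, 23.6 and 25.0 FPKM in Norm (log2 -0.66, SE 0.08, adjusted p = 8.94e-05). For all 3 genes each HFrD library lay below each Norm library. Tie1 (-0.68), Eng (-0.70) and Emcn (-0.67) fell by similar amounts, and Vwf (-0.43, adjusted p = 0.0110) and Tek (-0.36, adjusted p = 0.0174) by less.

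Flt1 and Egfl7 did not pass. Flt1 was 10.1, 8.38, 10.1 and 8.11 FPKM on HFrD and 10.1, 10.2, 9.56 and 9.37 FPKM in Norm (log2 -0.09, 95% interval -0.27 to 0.08, adjusted p = 0.318). Egfl7 was 4.25, 4.43, 2.84 and 3.74 FPKM on HFrD and 2.82, 3.65, 3.57 and 3.84 FPKM in Norm (log2 0.10, 95% interval -0.16 to 0.37, adjusted p = 0.474). Both genes overlapped between the groups. After rescaling to a common median of ratios 7 members were called and the median was -0.48, with Tek at -0.18 (adjusted p = 0.157), while over all genes the calls moved from 2078 higher of 6868 to 3006 higher of 5776.

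All 4 Norm libraries of ChMKO mice lay on the positive side of the first component and all 4 HFrD libraries on the negative side, so in ChMKO mice the diet and this division cannot be told apart. Depth was 17228116 to 23460515 reads in HFrD and 14473170 to 18981600 in Norm libraries. In F/F mice, where Norm holds both sides, 0 of 10 members were called by limma on HFrD, where 0% of 10707 genes were called and 2531 had an unadjusted p under 0.05. The median was -0.32 against -0.10 over all genes, and 1 member, Emcn, had an unadjusted p under 0.05. Emcn was 2.32, 2.03, 1.79 and 2.42 FPKM in the 4 F/F mice on HFrD and 4.09, 5.32, 2.51 and 3.27 FPKM in Norm (log2 -0.58, SE 0.17, adjusted p = 0.155). Its groups did not overlap, a pattern in that direction found in 13.3% of all genes.

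Cdh5 was 19.4, 19.0, 18.2 and 18.2 FPKM on HFrD in F/F mice and 37.1, 41.7, 18.0 and 20.0 FPKM in Norm, in the same order of mice as before. The HFrD values lay between those of the 2 Norm libraries on the negative side and far below the other 2 (log2 -0.53, adjusted p = 0.229). Kdr was 6.05, 4.82, 4.68 and 7.37 FPKM on HFrD and 10.3, 12.0, 3.81 and 6.76 FPKM in Norm, again below the 2 Norm libraries on the positive side. Within the negative side, with 4 HFrD and 2 Norm libraries, the median of the members was 0.10 and 0 of 10 were called by limma (3 at an unadjusted p under 0.05), where 0.934% of 10599 genes were called, with Cdh5 at -0.02, Kdr at 0.12, Eng at 0.34 and Emcn at -0.31 (adjusted p from 0.158 to 0.881). The response to diet was compared between genotypes directly, and 0 of 10 members were called by limma (0 at an unadjusted p under 0.05), where 0% of 10718 genes were called and 477 had an unadjusted p under 0.05. The median of these differences was -0.27, and it has no value within a side, since no side holds ChMKO libraries of both diets. The comparisons of Hypo and HFrD with Norm share the Norm libraries.

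**Figure D4:**
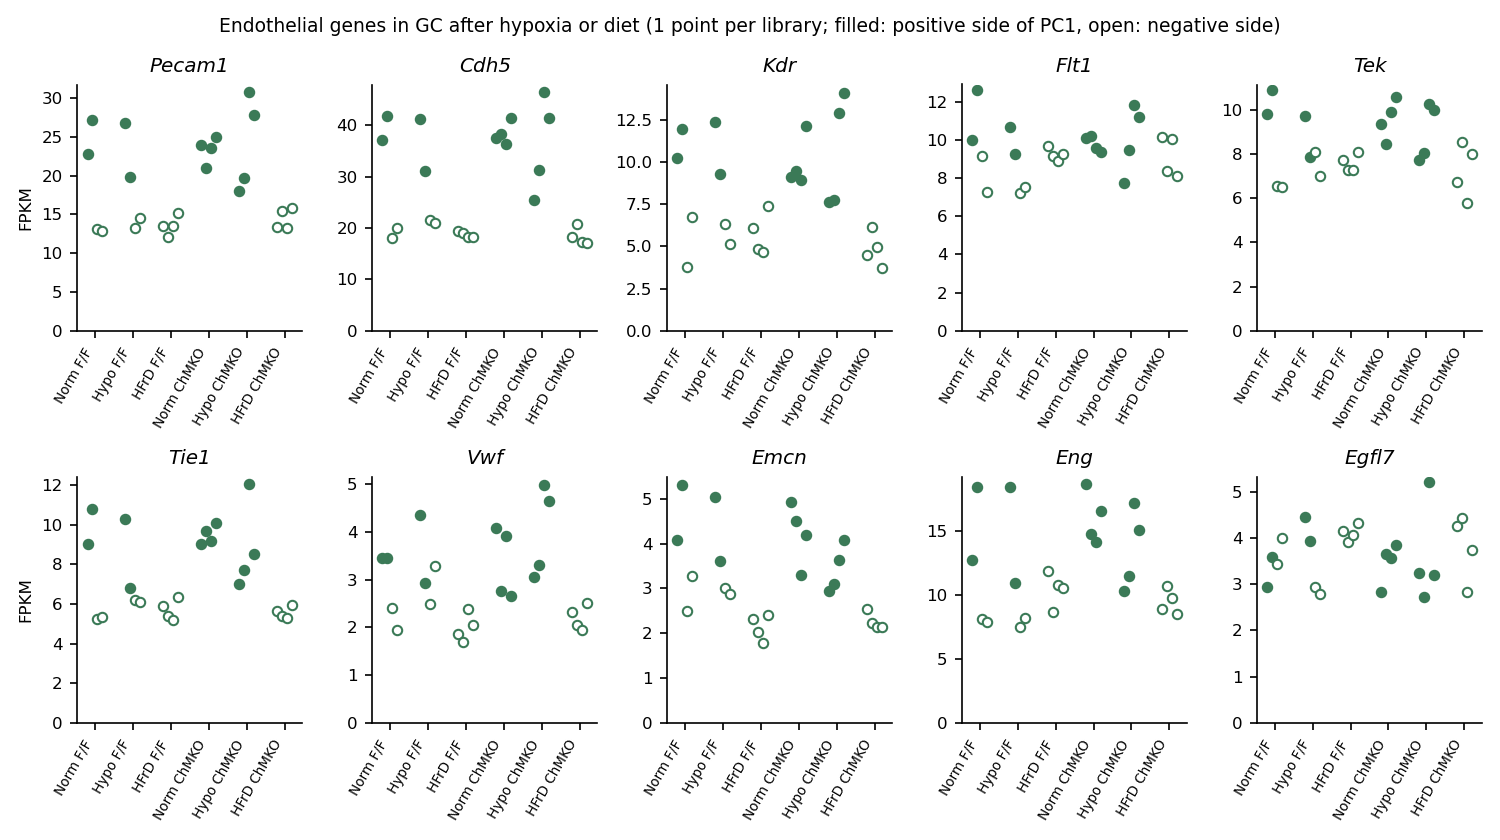
FPKM of each of the 10 genes in GC of the 6 groups of the second experiment, with 1 point per library (n = 4 per group), filled for the positive and open for the negative side of the first principal component. For Cdh5 the open points lie at 17.2 to 21.6 FPKM in every group that has them and the filled points at 25.5 to 46.5 FPKM.

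The lists around the members held calls in both directions in ChMKO mice on HFrD, where 44.6% of all genes were called lower and 19.4% higher. Of 25 other endothelial genes 15 were called lower and 1 higher, with a median of -0.37, from -0.81 for Plvap, the protein of endothelial diaphragms, to 0.56 for Cyyr1. Of 10 capillary genes of lipid handling 4 were called lower and 2 higher, with Lpl at 1.36 (41.2 ± 10.3 FPKM in Norm and 105.4 ± 14.1 on HFrD, SD, n = 4, adjusted p = 0.000136) and the fatty acid transporter Cd36 at 0.48 (adjusted p = 0.00852). Of the ligands 3 of 9 were called higher and 5 lower, with Angpt1 at 0.78 (adjusted p = 0.00112), Vegfa at 0.72 (adjusted p = 0.000397) and Vegfb at -0.53 (adjusted p = 0.000185). In F/F mice Vegfa was 0.47 (adjusted p = 0.158). Of 10 pericyte genes 7 were called lower and 1 higher, of 10 fibroblast genes 8 lower with Col1a1, a collagen chain, the lowest at -2.71, and of 5 red blood cell genes 5 lower with a median of -1.20. The part of these cells in the members' fall was not tested.

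**Figure D5:**
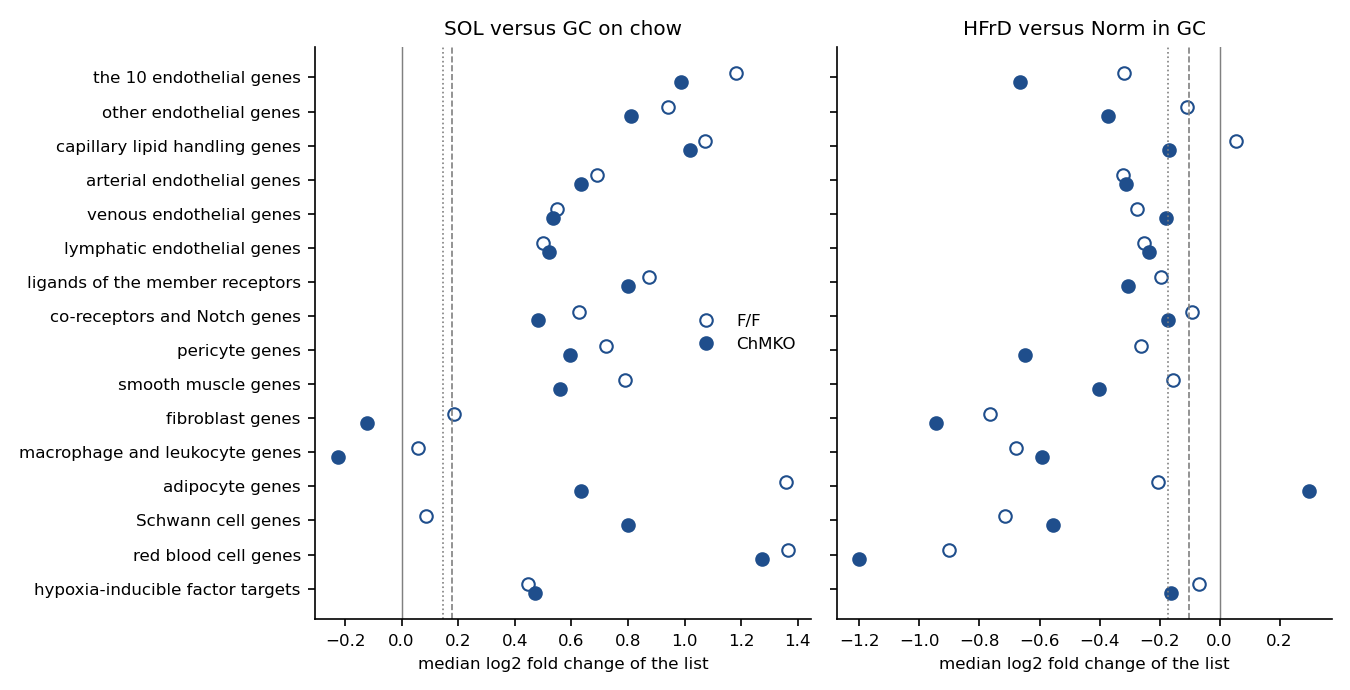
Median log2 fold change of each list of genes for SOL against GC on chow (left) and HFrD against Norm in GC (right), open for F/F and filled for ChMKO mice, with a dashed (F/F) and a dotted (ChMKO) line at the median of all genes. The 10 endothelial genes lie at 1.18 and 0.99 on the left and at -0.32 and -0.66 on the right.

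Between genotypes within a condition, no member passed the threshold. In Norm 0 of 10 were called by limma (0 at an unadjusted p under 0.05), where 0.00922% of 10848 genes were called, with a median of 0.27. The libraries of F/F mice were divided and those of ChMKO mice were not, and within the positive side the median was -0.07 with 0 of 10 called (0 at an unadjusted p under 0.05), where 0.00926% of 10794 genes were called. In Hypo 0 of 10 were called (0 at an unadjusted p under 0.05), where 0.00941% of 10628 genes were called, with a median of 0.23. Within the positive side the median was -0.01 with 0 of 10 called (0 at an unadjusted p under 0.05), where 0.00951% of 10518 genes were called. On HFrD, where all libraries lay on the negative side, 0 of 10 were called (0 at an unadjusted p under 0.05), where 0.0190% of 10515 genes were called. There the median was -0.03, the members ran from -0.21 for Kdr to 0.10 for Vwf, and Cdh5 had the narrowest interval, from -0.16 to 0.11.

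Excess ChREBP was examined in GC 14 days after AAV injection and in C2C12 cells. In GC 0 of 10 members were called by limma (0 at an unadjusted p under 0.05), where 0.00906% of 11033 genes were called, with a median of 0.04 against 0.02 over all genes. Pecam1 was 15.8, 18.4, 17.2, 19.4 and 22.8 FPKM with AAV-MLXIPL and 15.2, 21.1, 14.6, 18.0 and 22.4 FPKM with AAV-CON in replicates 1, 3, 4, 7 and 8, with an interval of -0.23 to 0.31. Vwf had the largest difference, at 5.05, 4.71, 4.87, 5.90 and 4.56 FPKM against 4.66, 4.22, 4.87, 4.12 and 4.04 FPKM (log2 0.16, SE 0.07, adjusted p = 1.00). Both genes overlapped between the vectors. The 95% intervals of the 10 members lay within -0.33 and 0.36, with Egfl7 at the upper and Emcn at the lower end.

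In C2C12 only Eng and Egfl7 passed the filter on mean level, and 0 of these 2 were called by limma (0 at an unadjusted p under 0.05), where 30.5% of 11971 genes were called. Eng was 0.73, 0.73, 0.96 and 0.80 FPKM with overexpression and 0.75, 0.89, 0.91 and 0.72 FPKM with the control vector, and Egfl7 was 0.67, 1.00, 0.47 and 0.40 against 0.20, 0.66, 1.20 and 0.46 FPKM. Both overlapped between the groups, with differences of -0.01 and 0.03. Tek, under the filter, was 0.26, 0.24, 0.22 and 0.12 FPKM with overexpression and 0.27, 0.40, 0.52 and 0.38 FPKM with the control, so that the highest of the first lay just below the lowest of the second, as in 14.7% of the genes tested. Pecam1, Cdh5, Kdr and Vwf were at most 0.06 FPKM in any of the 8 libraries, Flt1 was 0.17 to 0.30 FPKM, and Emcn was listed at 0 in all but 1.

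Within groups of the 3 muscle tables, the members varied together. After subtraction of group means, the Pearson correlation of each member with the mean of the other 9 over 20 chow libraries was 0.66 for Kdr to 0.95 for Cdh5, and over 24 libraries of the second experiment 0.41 for Egfl7 to 0.97 for Pecam1. Over 10 AAV libraries it was 0.45 to 0.74 for 9 members and -0.35 for Vwf. Libraries share depth and makeup across genes, and the part of the division of the F/F groups in the values of the second experiment was not tested. The chow values include SOL of F/F mouse 71 and GC of F/F mouse 69, which stood apart, and their part was not tested either. Among 8184 other genes, those most like the mean of the members over the 3 tables were Ehd2 (mean r 0.87), Cav1, the caveolin of endothelial caveolae (0.87), F11r, a junction adhesion molecule (0.87), Elovl5, a fatty acid elongase (0.86), and Cd93, a surface protein of endothelium (0.84). Epas1, a hypoxia-inducible factor (0.84), Tspan13 (0.83), Ets1, a factor of the ETS family (0.83), Ly6e (0.82) and Cd300lg (0.82) followed. Of these 10 genes, Cav1 alone was on the list of other endothelial genes.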

How the data were processed

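RNA was extracted with TRIzol, and poly(A) mRNA libraries were sequenced on an Illumina NovaSeq. Per the submitters' notes the authors used fastp 0.18.0, Bowtie2 2.2.8, HISAT2 2.1.0, StringTie 1.3.1, RSEM and GRCm39, and the chow table holds GRCm38 positions. The deposited tables hold FPKM per library, computed by the authors. For the AAV and C2C12 tables the unit was read from the values and methods. Gene lengths deposited in a table were used as other values only to recover whole reads, which came out whole in 100% of values of the second experiment. The deposited columns of comparisons by the authors (fold changes and p-values) were not used. For the SOL library of F/F mouse 69, the label's title gives mouse 59 and its description, like the column, gives 69, which was used.

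Values were transformed to log2(FPKM + 1). Genes whose mean over the libraries compared reached 0.5 FPKM were tested with limma 3.58.1 (moderated test with trend, two-sided, Benjamini-Hochberg adjustment over all genes tested) in R 4.3.3 with statmod 1.5.0. The second criterion used a limit of 1 on the size of the log2 fold change together with p under 0.05 before adjustment. Tables were made in Python 3.11.15 with numpy 2.4.6, pandas 2.3.3, scipy 1.17.1 and matplotlib 3.10.9, and the fits were tested on simulated data. The 10 members were named in full, and other genes were named as the extremes of their list or for their role. The members and lists were chosen with earlier results of these data known.

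The GC and SOL libraries of a mouse share the animal and are paired (correlation of deviations -0.02 to 0.32). The labels give only replicate numbers for AAV and C2C12 libraries, and same-numbered pairs correlated at 0.21 to 0.49 and -0.09 to 0.18. AAV-MLXIPL replicate 3 correlated best with AAV-CON replicate 4. The main fits between groups, whose SE, intervals and p-values are printed, used no pairing. The block for mouse or replicate number was an alternative, and the comparison of muscles between genotypes allowed for the shared mouse. Alternatives were the pseudocount, the filter, rescaling by the median of ratios, the block, all groups in a single fit and each library left out. Fits within a side of the first component, fits without libraries that stand apart and a test on recovered reads were chosen after seeing the data.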

Additional observations from a re-analysis of the deposited data

Results flagged for a closer look

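In 3 of 120 combinations of a member and a muscle group, the highest or lowest library was set apart from the others by more than Dixon's 95% critical value, which chance alone exceeds in about 5% of groups. Cdh5 was 58.5 FPKM in SOL of F/F mouse 71, where the other 4 F/F mice lay at 35.4 to 40.8 FPKM. Flt1 was 22.1 FPKM in the same library, with the others at 11.6 to 13.4 FPKM. Pecam1 was 31.9 FPKM in SOL of ChMKO mouse 61, with the others at 38.5 to 40.7 FPKM.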

How the results depend on the processing

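The number of members called stayed within 1.5 times, except for C2C12 without a filter on low values, where 1 member, Tek, was called. Rescaling by the median of ratios moved the members' median to 0.82 for SOL against GC in ChMKO mice and to -0.48 for HFrD in ChMKO mice, and left 4, 1 and 0 members past the fold limit for SOL against GC in F/F and ChMKO mice and HFrD in ChMKO mice. Within a side of the first component the median was 0.10 for HFrD in F/F mice and -0.072 between genotypes in Norm, and without 2 libraries the median difference of muscle by genotype was 0.070. The causes were not tested. In C2C12 the median was 0.057 with a pseudocount of 0.1 and -0.069 to 0.098 with a library left out. With a library left out the median ran from 0.99 to 1.27 and 0.94 to 1.06 for SOL against GC, from -0.17 to 0.16 for Hypo in F/F, from -0.43 to -0.15 for HFrD in F/F and from -0.67 to -0.62 for HFrD in ChMKO mice. With the mouse number as a replicate block, 10 members were called between muscles in F/F mice with a median of 1.18 (1.12 without mouse 69, whose number differs between labels), and the block changed no other call of members. Over all genes, calls for Hypo in F/F mice went from 0 to 2 with all groups in the fit and 80 within the negative side. For Hypo in ChMKO mice they went from 95 to 213 with all groups, 157 rescaled, 6 without a filter and 10 to 129 with a library left out. For HFrD in F/F mice they went from 0 to 220 with all groups and 99 within the negative side. The hypoxia intervals in F/F mice, the widest of them -0.74 to 0.83 for Kdr, limit what could be detected.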
